A study of Mus musculus with 8 samples.

Results

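The heat shock protein genes described here are 10 of the 23337 gene symbols listed for each library: Hspa1a, Hspa1b, Hspa8, Hsp90aa1, Hsp90ab1, Hsph1, Dnaja1, Dnajb1, Hspe1 and Hspd1. They were taken by symbol as a set of abundant heat shock proteins, each stood on a single line in all 8 deposited tables, and 10 of 10 passed the filter on low values, an average of 1 TPM or more (TPM, transcript share scaled to a fixed total per library). The set is called cytosolic, which holds for 8 of the 10 genes, because Hspd1 and Hspe1 encode the chaperonin of the mitochondrial matrix. The tables came from naive T cells, sorted as CD62L+ and CD44low and sequenced as messenger RNA. The mice were 4 weeks old, and the cells were taken from their spleens and mesenteric lymph nodes. There were 4 groups of 2 libraries, and the titles of all 8 carry the word FRESH, which the labels do not explain. The CD4 KO and CD8 KO groups came from mice with a conditional knockout of Trappc1 driven by CD4-cre, and the CD4 WT and CD8 WT groups came from wild-type mice. CD4-cre is switched on while T cells develop in the thymus, so it acts in the lineages of both cell types but not in other blood cells. Trappc1 encodes a subunit of TRAPP, a complex that helps transport vesicles to dock at the Golgi apparatus, and the series asks whether naive T cells need it to survive.

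Heat shock proteins are chaperones that hold and fold other proteins. HSP70 proteins bind unfolded stretches with the help of J-domain (HSP40) partners and of nucleotide exchange factors such as HSP110, and pass some of their clients on to HSP90. The transcription factor HSF1 raises the genes of most of these proteins when unfolded protein accumulates, by binding repeated GAA units in their promoters. In T cells HSP90 is known as the chaperone of signalling kinases such as Lck, and HSP70 transcripts are known to be raised by handling and warming of cells during isolation.

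The depth was 3.03 to 4.01 aligned gigabases per library, and the CD4 KO libraries were the shallowest at 3.03 and 3.22. Fewer symbols were nevertheless listed at 0 TPM in CD4 KO, with 5952 and 6919, against 10090 and 7810 in CD4 WT. In CD8 cells these counts were 8566 and 8286 in KO, against 10634 and 9762 in WT. How this bears on low values such as those of Hspa1a was not tested. Library identity was checked first. Cd4 was at 543 to 764 TPM in the CD4 libraries and at 0 to 14.5 TPM in the CD8 libraries, and Cd8a was at 163 to 548 TPM in the CD8 libraries and at 1.28 to 4.10 TPM in the CD4 libraries. Trappc1 was at 30.5 and 32.8 TPM in CD4 KO, against 78.7 and 55.0 TPM in CD4 WT. It was at 56.9 and 45.6 TPM in CD8 KO, against 81.2 and 40.3 TPM in CD8 WT, so the library labelled CD8 WT replicate 2 went against its label, with less Trappc1 than either CD8 KO library. That library also stood apart in markers of other cells. Its 6 erythroid markers summed to 90223 TPM, against 13.5 to 2143 TPM in the other 7 libraries, its 8 neutrophil markers to 27052 TPM against 24.2 to 1258 TPM, and its 10 T cell markers to 3948 TPM against 5367 to 11540 TPM. Most differences of the members that rest on it are given with and without it below, while the counts per gene list were made only with it included.

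The heat shock genes are shown first by the DNA just upstream of their starts, since these stretches are where HSF1 is known to act. The RefSeq promoter table (build GRCm38.p6) held windows for 7 of the 10 genes, and Hspa8, Hsp90aa1 and Hsp90ab1 were not among them. The 250 bases before each start were searched for 2 GAA units facing each other, spelled GAANNTTC or TTCNNGAA. Each of these spellings is its own reverse complement, so both strands are read at once. Hspa1a and Hspa1b are neighbouring single-exon copies of each other on chromosome 17, and their upstream windows are printed whole because they are almost the same, differing at 3 of 250 positions. Both windows lie outside annotated exons, are read on the minus strand (chr17:34972157-34972406 for Hspa1a and chr17:34959239-34959488 for Hspa1b), and hold 1 match each, in capitals, that begins 104 bases before the start.

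Hspa1a: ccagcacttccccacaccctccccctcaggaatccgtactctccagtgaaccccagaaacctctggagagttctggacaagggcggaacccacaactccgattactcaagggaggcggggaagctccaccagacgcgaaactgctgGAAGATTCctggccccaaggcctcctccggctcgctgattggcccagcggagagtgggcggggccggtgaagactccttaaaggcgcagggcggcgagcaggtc
Hspa1b: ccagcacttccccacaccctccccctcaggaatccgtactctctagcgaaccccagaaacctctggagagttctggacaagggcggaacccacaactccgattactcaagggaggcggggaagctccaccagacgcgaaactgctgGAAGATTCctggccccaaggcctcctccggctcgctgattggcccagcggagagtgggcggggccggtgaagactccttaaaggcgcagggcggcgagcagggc

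Shorter stretches are printed for Hsph1 (chr5:149636352-149636379, minus strand), Dnaja1 (chr4:40722334-40722361, plus strand) and Hspe1 (chr1:55088053-55088082, plus strand), again with the facing units in capitals. Of the 250 bases before the start, 61 lie in annotated exons for Hsph1 and 218 for Dnaja1. The Hspe1 stretch holds 3 overlapping pairs and lies in the 215 bases between the diverging starts of Hspe1 and Hspd1 (chr1:55087933-55088147), so it stands upstream of both genes. All 215 bases are covered by annotated exons of other transcripts of these 2 genes.

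Hsph1: ggtagaatctTTCTCGAAggctcgagaa
Dnaja1: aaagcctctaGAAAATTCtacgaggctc
Hspe1: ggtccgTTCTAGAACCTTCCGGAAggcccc

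The window of Dnajb1 held no match. Of 32536 RefSeq windows of the same 250 bases, 12.9% held a facing pair, and 0.470% held 3 units in a row, GAANNTTCNNGAA or TTCNNGAANNTTC, as the Hspe1 and Hspd1 windows do. A match describes the letters only, and no binding was measured.

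The 10 genes covered a wide range of levels. Hspa8, the constitutive HSP70, was the most abundant with 1247 to 1607 TPM in the 8 libraries, followed by Hsp90ab1, the constitutive HSP90 (533 to 1085 TPM), Hsp90aa1, the inducible HSP90 (284 to 897 TPM), and the mitochondrial chaperonin gene Hspd1 (320 to 558 TPM). The J-domain genes Dnajb1 and Dnaja1 lay at 201 to 461 TPM and 133 to 325 TPM. Hsph1, the HSP110 exchange factor, lay at 41.1 to 93.2 TPM and Hspe1, the lid of the mitochondrial chaperonin, at 31.5 to 71.2 TPM. The stress-inducible HSP70 genes were low, with 0.582 to 62.7 TPM for Hspa1a and 1.08 to 12.9 TPM for Hspa1b. The highest library was 1.29 times the lowest for Hspa8 and 108 times the lowest for Hspa1a, so the most abundant member varied least and a scarce inducible copy varied most.

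The order of the groups differed between members. The CD4 KO mean was the highest of the 4 groups for both HSP90 genes and both J-domain genes. For Dnaja1 the means were 318 ± 11 TPM in CD4 KO and 253 ± 8.13 TPM in CD8 KO, then 183 ± 70.8 TPM in CD8 WT and 163 ± 18.0 TPM in CD4 WT (SD, n = 2 each), and the lowest pair differed by less than its spread. For Hsp90aa1 the mean was 819 ± 111 TPM in CD4 KO, 539 ± 120 TPM in CD8 KO, 556 ± 296 TPM in CD8 WT and 326 ± 60.2 TPM in CD4 WT, and the CD8 groups did not differ beyond their spread. Hspe1 had its highest mean in CD4 WT (70.4 ± 1.19 TPM), while Hsph1 had its lowest in CD4 KO (41.6 ± 0.739 TPM) beside 79.3 ± 0.138 TPM in CD8 KO, 77.1 ± 22.9 TPM in CD8 WT and 77.0 ± 14.4 TPM in CD4 WT.

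**Figure D1:**
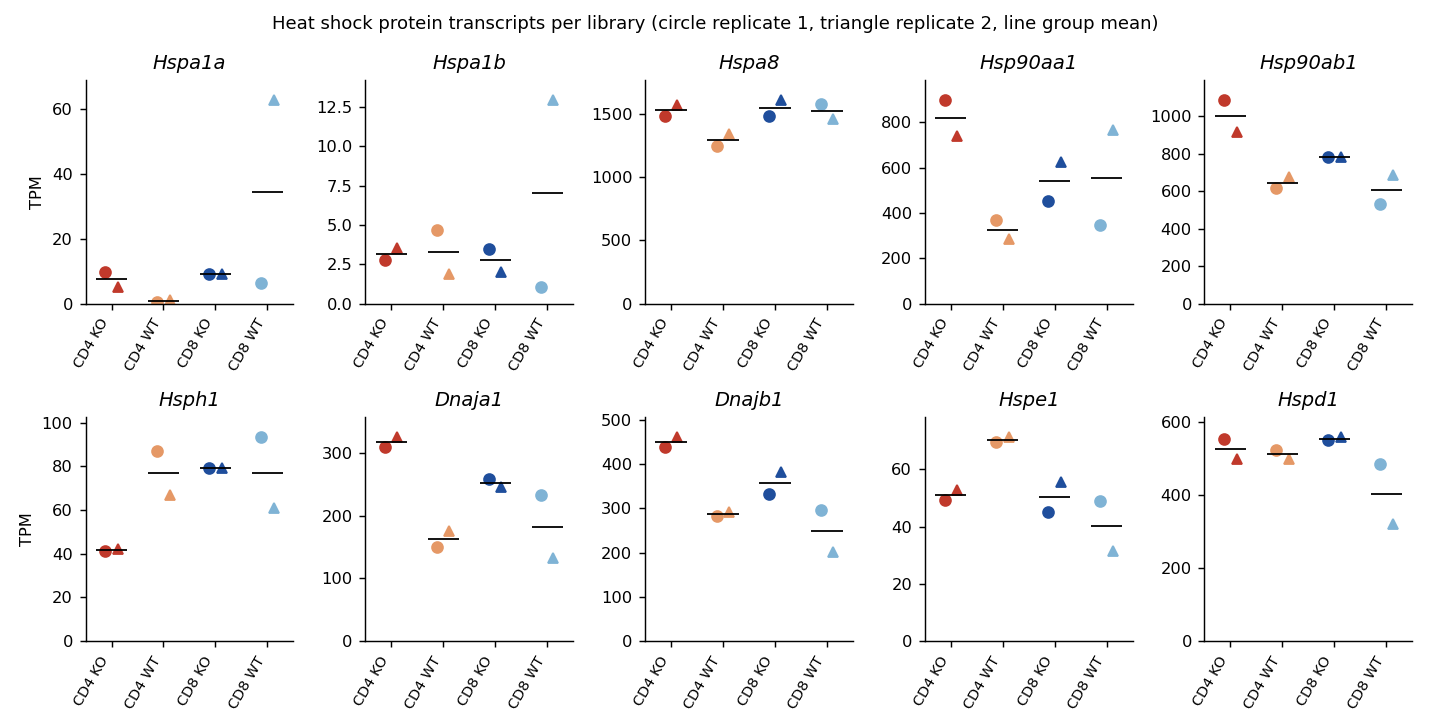
TPM of each of the 10 genes (y axis, linear from 0) by group (x axis), with a circle for replicate 1, a triangle for replicate 2 and a line at the group mean. In CD4 cells the KO points of Hsp90aa1, Hsp90ab1, Dnaja1 and Dnajb1 all lie above the WT points and those of Hsph1 and Hspe1 below them. The library labelled CD8 WT replicate 2 is the high point of Hspa1a (62.7 TPM) and Hspa1b (12.9 TPM).

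In naive CD4 T cells, 8 of the 10 genes had knockout and wild-type libraries without overlap. KO libraries lay above WT libraries for Hspa1a, Hspa8, Hsp90aa1, Hsp90ab1, Dnaja1 and Dnajb1, which is 6 genes where 21.7% of all 11786 genes tested did so, and below them for Hsph1 and Hspe1, which is 2 genes where 36.5% of all genes did so. With 2 libraries a group, an exact permutation test of a single gene cannot give a two-sided p below 0.333. In the fit over all genes (limma, Benjamini-Hochberg adjustment at 0.05), 0 of the 10 genes passed, while 0.713% of all genes did. At an unadjusted limma p under 0.05 there were 6 members, against 16.7% of all genes. That count was 6 without either CD8 WT library and 0 to 3 without any 1 of the other 6 libraries, where 7.64% to 15% of all genes had such a p. It was 2 with no intensity trend in the fit (15.7% of all genes) and 3 with a trend over gene span removed from each library (11.7% of all genes). The median log2 difference of the members was 0.43, with 8 of 10 positive, beside a median of -0.16 over all genes, of which 4919 of 11786 were positive. These are bulk libraries, so fewer cells of a type and less RNA per cell cannot be told apart.

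The HSP90 genes gave the widest gaps in TPM in CD4 cells. Hsp90aa1 (chr12:110691036-110696395, minus strand, mm10 as are all positions of genes here) was at 897 and 740 TPM in CD4 KO, against 369 and 284 TPM in CD4 WT. Its lower KO library was above the higher WT library by more than either group's spread, and the group means were 819 ± 111 TPM in CD4 KO and 326 ± 60.2 TPM in CD4 WT (SD, n = 2 each). The difference was 1.33 ± 0.39 on the log2(TPM + 1) scale (SE), with a 95% interval of 0.46 to 2.20, and did not pass (limma, adjusted p = 0.142). Hsp90ab1 (chr17:45567778-45573261, minus strand) was at 1085 and 917 TPM in CD4 KO, against 614 and 677 TPM in CD4 WT. Both KO libraries were higher than both WT libraries, by 0.63 ± 0.27 (limma, adjusted p = 0.284). Within a library, Hsp90aa1 was 0.827 and 0.807 of Hsp90ab1 in CD4 KO, against 0.601 and 0.419 in CD4 WT, so the inducible gene stood closer to the constitutive gene in the KO libraries.

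The J-domain members Dnaja1 and Dnajb1, partners of HSP70, had KO values above WT values in CD4 cells, where 6 of 13 other J-domain genes had a positive difference. Dnaja1 (chr4:40722468-40737151, plus strand) was at 310 and 325 TPM in CD4 KO, against 151 and 176 TPM in CD4 WT, with means of 318 ± 11 TPM in CD4 KO and 163 ± 18.0 TPM in CD4 WT (SD, n = 2 each). This gap was several times the spread within either group, at 0.96 ± 0.32 on the log2 scale with an interval of 0.24 to 1.67, and failed the adjusted threshold (limma, adjusted p = 0.179). Dnaja1 overlaps the antisense gene Smu1 by 1503 bases, and the sources used here do not say whether counting used strand. Dnajb1 (chr8:83608175-83611903, plus strand), whose protein starts the disaggregating work of HSP70, was at 440 and 461 TPM in CD4 KO, against 284 and 292 TPM in CD4 WT. The 2 groups were tight and did not overlap, at 450 ± 14.8 TPM in CD4 KO and 288 ± 5.75 TPM in CD4 WT (SD, n = 2 each), and the difference of 0.64 ± 0.29 did not pass (limma, adjusted p = 0.297).

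Among the HSP70 genes, Hspa8 (chr9:40801273-40805199, plus strand) was at 1485 and 1572 TPM in CD4 KO, against 1247 and 1338 TPM in CD4 WT, a difference of 0.24 ± 0.26 (limma, adjusted p = 0.677). Hspa1a (chr17:34969359-34972156, minus strand) was at 9.77 and 5.18 TPM in CD4 KO, against 0.582 and 1.29 TPM in CD4 WT. The groups did not overlap, but the low WT values rest on 2400 and 4766 aligned bases of the gene, against 35077 and 18643 in CD4 KO. Its difference of 2.10 ± 0.89 did not pass (limma, adjusted p = 0.272), and its size depended on the pseudocount, at 2.89 with a pseudocount of 0.1 and 1.05 with a pseudocount of 5. The neighbouring copy Hspa1b (chr17:34956429-34959238, minus strand) did not show the same order, at 2.76 and 3.52 TPM in CD4 KO, against 4.71 and 1.90 TPM in CD4 WT (difference 0.02, 95% interval -1.95 to 1.99). How the authors' counting divided shared reads is not given, and 47.1% of the 100-base stretches of the Hspa1a transcript also occur in Hspa1b, so each copy's own value is uncertain. Summed, the 2 copies gave 12.5 and 8.70 TPM in CD4 KO, against 5.29 and 3.19 TPM in CD4 WT, and differed by 1.16 ± 0.86 (limma, adjusted p = 0.533).

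Hsph1 stood on the other side. This gene (chr5:149616845-149636315, minus strand) was at 41.1 and 42.2 TPM in CD4 KO, against 87.2 and 66.9 TPM in CD4 WT, a difference of -0.86 ± 0.33 with an interval of -1.60 to -0.12 (limma, adjusted p = 0.233). As a share of Hspa8, the HSP70 it serves, Hsph1 was 2.77% and 2.68% in CD4 KO, against 6.996% and 4.996% in CD4 WT. The mitochondrial chaperonin genes Hspe1 and Hspd1 share their upstream stretch, and their differences in CD4 cells were not tested against each other. Hspe1 (chr1:55088148-55091317, plus strand) was at 49.3 and 52.8 TPM in CD4 KO, against 69.5 and 71.2 TPM in CD4 WT, with no overlap (difference -0.46 ± 0.34, 95% interval -1.22 to 0.31, limma, adjusted p = 0.535). Hspd1 (chr1:55077834-55087932, minus strand) was at 555 and 500 TPM in CD4 KO, against 524 and 500 TPM in CD4 WT, with overlap (difference 0.04, 95% interval -0.60 to 0.68). The ratio of Hspd1 to Hspe1 was thus 11.3 and 9.47 in CD4 KO, against 7.53 and 7.02 in CD4 WT.

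The direction and size of these CD4 values were checked under other settings. With median-of-ratios scaling the median of all genes was 0.03 in place of -0.16, and the calls in CD4 cells over all genes were 63 higher and 79 lower, where TPM gave 22 higher and 62 lower. The signs of 10 of 10 members were kept under it. With the trend over gene span removed the median of all genes was -0.03 and several differences shrank, to 0.01 for Hspa8, 0.41 for Dnajb1 and 0.44 for Hsp90ab1, while Hspe1 stood at -0.71. Hspa1b (-0.24) and Hspd1 (-0.06) turned negative, and Hsp90aa1 (1.14), Dnaja1 (0.92) and Hsph1 (-0.83) moved less. Leaving out a CD8 WT library changed the calls. Without the library labelled CD8 WT replicate 2, which enters the CD4 comparison only through the pooled spread, 768 genes were called, with Hsp90aa1 (limma, adjusted p = 0.0227) and Dnaja1 (limma, adjusted p = 0.0248) among them. Without CD8 WT replicate 1, 758 genes were called, again with Hsp90aa1 (limma, adjusted p = 0.0234) and Dnaja1 (limma, adjusted p = 0.0266). Without any of the other 6 libraries, at most 3 genes and 0 members were called.

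In naive CD8 T cells the wild-type libraries were further apart than in CD4 cells, with a larger SD for 10 of 10 genes. KO libraries lay above WT libraries for Hsp90ab1, Dnaja1, Dnajb1 and Hspd1, which is 4 genes where 23% of all genes did so, and below them for 0 genes where 19.1% of all genes did so. By limma 0 of 10 members passed, against 0.297% of all genes, and 0 had an unadjusted p under 0.05, against 15.1% of all genes. The median log2 difference of the members was 0.21, with 8 of 10 positive, beside 0.05 over all genes.

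Dnajb1 was at 333 and 382 TPM in CD8 KO, against 297 and 201 TPM in CD8 WT (difference 0.54, 95% interval -0.10 to 1.18). Dnaja1 was at 258 and 247 TPM in CD8 KO, against 233 and 133 TPM in CD8 WT (difference 0.52, 95% interval -0.19 to 1.23). Hspd1 was at 552 and 558 TPM in CD8 KO, against 485 and 320 TPM in CD8 WT (difference 0.49, 95% interval -0.15 to 1.14). In each of these 3 genes the lowest value was that of the library labelled CD8 WT replicate 2, and without that library the differences were 0.26 for Dnajb1, 0.12 for Dnaja1 and 0.20 for Hspd1. Hsp90ab1 was at 783 and 781 TPM in CD8 KO, against 533 and 684 TPM in CD8 WT. Here that library was the nearer of the WT libraries to the KO level, and the difference was 0.37 with it and 0.55 without it (limma, adjusted p = 0.528 and 0.220).

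The other 6 genes overlapped between CD8 KO and CD8 WT. Hsp90aa1 was at 454 and 624 TPM in CD8 KO, against 347 and 765 TPM in CD8 WT, with the KO pair between the WT pair. Its difference was 0.05 with the library labelled CD8 WT replicate 2, which held the 765 TPM, and 0.62 without it. Hspa1a was at 9.05 TPM in both CD8 KO libraries, against 6.38 and 62.7 TPM in CD8 WT, and Hspa1b was at 3.49 and 2.03 TPM in CD8 KO, against 1.08 and 12.9 TPM in CD8 WT. The high WT value of both inducible copies came from the library labelled CD8 WT replicate 2. The Hspa1a difference was -1.11 with it and 0.45 without it, and the Hspa1b difference was -0.54 with it and 0.83 without it. Hspa8 was at 1485 and 1607 TPM in CD8 KO, against 1578 and 1459 TPM in CD8 WT, with a difference of 0.03 (95% interval -0.56 to 0.61). Hsph1 was at 79.2 and 79.4 TPM in CD8 KO, against 93.2 and 60.9 TPM in CD8 WT, and its difference of 0.07 (95% interval -0.67 to 0.82) stands beside -0.86 in CD4 cells. Hspe1 was at 45.3 and 55.5 TPM in CD8 KO, against 48.9 and 31.5 TPM in CD8 WT. Its difference was 0.34 with the library labelled CD8 WT replicate 2 and 0.03 without it. With median-of-ratios scaling the CD8 signs of Hspa8, Hsp90aa1 and Hsph1 turned, at -0.08, -0.05 and -0.03. With the trend over gene span removed Hspa8 (-0.15) and Hsp90aa1 (-0.13) turned as well, and the CD8 difference was 0.19 for Hsp90ab1 and 0.37 for Dnajb1.

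The CD8 calls depended on which wild-type library was kept. Without CD8 WT replicate 1, so that the library labelled CD8 WT replicate 2 stood alone for the group and was assumed to vary like the other groups, 1842 genes passed and 4 members were among them. Dnaja1 (0.92), Dnajb1 (0.82) and Hspd1 (0.79) were higher in CD8 KO and Hspa1a (-2.66) was lower, with adjusted p between 0.0279 and 0.0323 (limma). Without the library labelled CD8 WT replicate 2, 37 genes and 0 members passed.

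**Figure D2:**
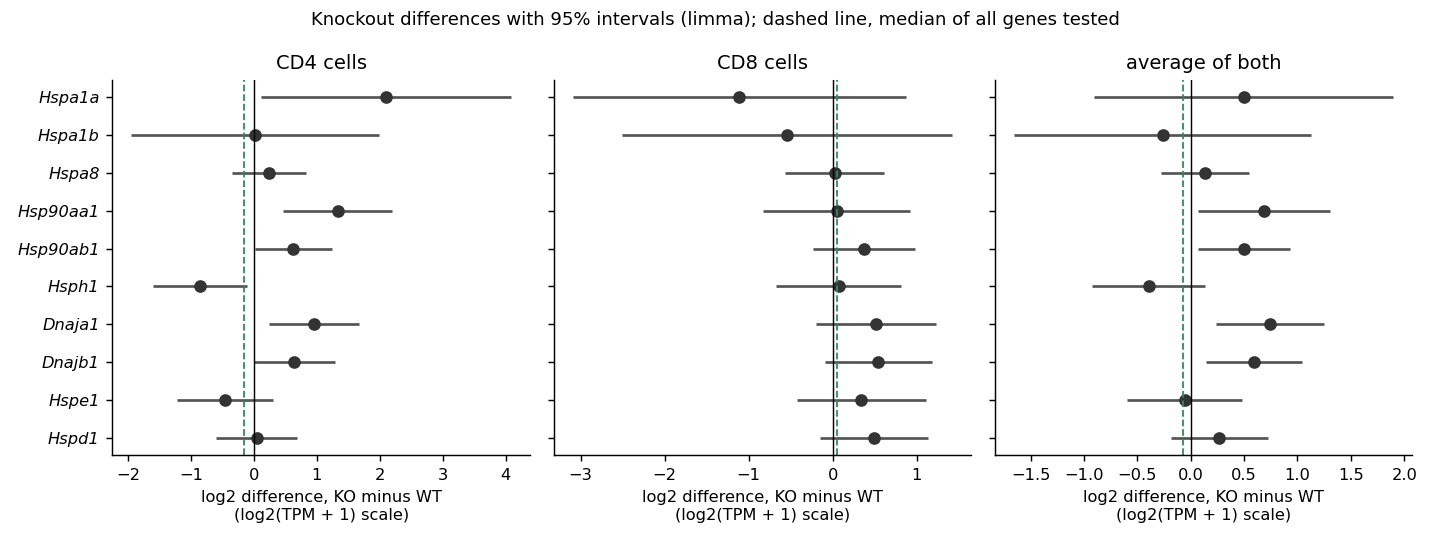
Log2 differences of KO minus WT for the 10 genes (x axis, log2(TPM + 1) scale, own range in each panel) in CD4 cells, CD8 cells and the average of both, with points for the limma estimate, bars for its 95% interval and a dashed line at the median of all genes tested. In CD4 cells Hsp90aa1 (1.33) and Dnaja1 (0.96) lie right of zero and Hsph1 (-0.86) left of it, and in CD8 cells 10 of 10 bars cross zero.

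Over both cell types, all 4 KO libraries lay above all 4 WT libraries for Hsp90ab1, Dnaja1 and Dnajb1, which is 3 genes where 5.57% of all genes did so, and below them for 0 genes where 7.69% of all genes did so. Hsp90ab1 was at 781 to 1085 TPM in KO and 533 to 684 TPM in WT libraries. The lowest KO and the highest WT library were close for Dnaja1, at 247 TPM in KO and 233 TPM in WT, and for Dnajb1, at 333 TPM in KO and 297 TPM in WT. Without the library labelled CD8 WT replicate 2, Hsp90aa1 joined these 3 genes, making 4 members beside 8.05% of all genes, and 0 members lay below beside 16.8% of all genes. This count without that library was added after its values were seen.

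The average of the CD4 and CD8 differences uses the same libraries as the separate comparisons and is no independent result. On it 0 of 10 members passed, against 4.12% of all genes, and 4 had an unadjusted limma p under 0.05, against 22.6% of all genes. With the trend over gene span removed 1 member had such a p (16.9% of all genes), as did 1 with no intensity trend (21.4% of all genes). The 4 were Dnaja1 (0.74 ± 0.23, adjusted p = 0.0954), Dnajb1 (0.59 ± 0.20, adjusted p = 0.123), Hsp90ab1 (0.50 ± 0.19, adjusted p = 0.162) and Hsp90aa1 (0.69 ± 0.28, adjusted p = 0.177). The members' median was 0.38 with 7 of 10 positive, beside -0.07 over all genes. With the trend over gene span removed the averages were 0.68 for Dnaja1, 0.39 for Dnajb1, 0.32 for Hsp90ab1 and 0.50 for Hsp90aa1. Without the library labelled CD8 WT replicate 2, so that CD8 WT replicate 1 stood alone for its group, the averages were 0.97 for Hsp90aa1, 0.59 for Hsp90ab1 and 0.54 for Dnaja1. Without CD8 WT replicate 1, so that the library labelled CD8 WT replicate 2 stood alone for its group, the averages were 0.94 for Dnaja1 and 0.73 for Dnajb1. With median-of-ratios scaling 759 genes passed, with Dnaja1 (0.80, adjusted p = 0.0274) and Dnajb1 (0.65, adjusted p = 0.0376) among them.

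Whether the knockout difference itself differed between CD8 and CD4 cells was tested as an interaction. By limma 0 of 10 members passed, against 0% of all genes, and 2 members had an unadjusted p under 0.05, against 6.95% of all genes, and 0 or 1 had one without any 1 of the 6 libraries other than CD8 WT. These were Hspa1a, with a CD8 minus CD4 difference of -3.21 ± 1.25, and Hsp90aa1, with -1.28 ± 0.55 (limma, adjusted p = 0.701 for both). Both were closer to zero without the library labelled CD8 WT replicate 2, at -1.65 and -0.71. Without CD8 WT replicate 1, so that the library labelled CD8 WT replicate 2 stood alone for its group, the values were -4.76 and -1.85. For Hsph1 the interaction was 0.93 (95% interval -0.12 to 1.98), so its KO values in CD4 and in CD8 cells are not shown to differ in their distance from WT.

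Wild-type CD8 cells were set against wild-type CD4 cells to see the level each cell type starts from. By limma 0 of 10 members passed, against 0.195% of all genes, and 2 had an unadjusted p under 0.05, against 8.67% of all genes, and 1 had one without any 1 of the 6 libraries other than CD8 WT. Hspa1a, at 6.38 and 62.7 TPM in CD8 WT, against 0.582 and 1.29 TPM in CD4 WT, differed by 3.51 ± 0.89 (limma, adjusted p = 0.254) and by 1.95 without the library labelled CD8 WT replicate 2. Hspe1, at 48.9 and 31.5 TPM in CD8 WT, against 69.5 and 71.2 TPM in CD4 WT, differed by -0.82 ± 0.34 (limma, adjusted p = 0.559) and by -0.51 without that library. With CD8 WT replicate 1 left out, the library labelled CD8 WT replicate 2 stood alone for its group. The differences were then 5.06 for Hspa1a and -1.13 for Hspe1. Hspa8 was at 1578 and 1459 TPM in CD8 WT, against 1247 and 1338 TPM in CD4 WT, and the interval of its difference spanned zero (0.23, 95% interval -0.35 to 0.82).

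The 10 genes together made up 0.487% and 0.462% of the transcripts in CD4 KO, against 0.335% and 0.341% in CD4 WT. In CD8 cells they made up 0.400% and 0.435% in KO, against 0.362% and 0.373% in WT. KO libraries were above WT libraries in both cell types, and CD4 KO was above CD8 KO. Of the mean gap of 1367 TPM in CD4 cells, Hsp90aa1 gave 492, Hsp90ab1 355, Hspa8 236, Dnajb1 162 and Dnaja1 154 TPM, so the sum mostly follows the abundant cytosolic genes. In CD8 cells the mean gap was 499 TPM, of which Hsp90ab1 gave 174, Hspd1 153 and Dnajb1 108 TPM.

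**Figure D3:**
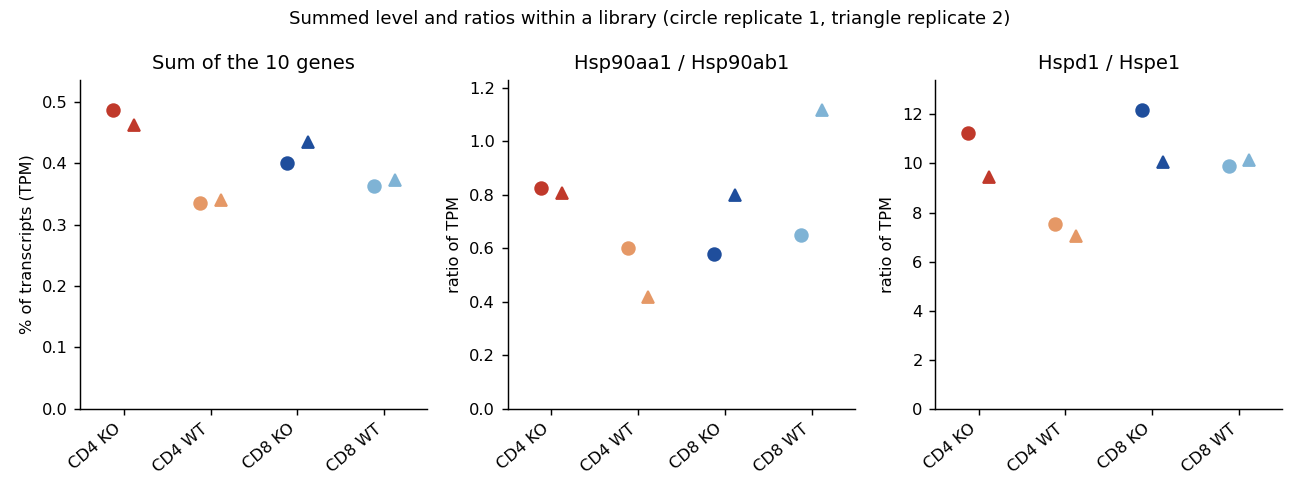
Share of all transcripts taken by the 10 genes together (left, percent of TPM), the ratio of Hsp90aa1 to Hsp90ab1 (middle) and the ratio of Hspd1 to Hspe1 (right) in each library, by group on the x axis, with a circle for replicate 1 and a triangle for replicate 2. In CD4 cells the KO points lie above the WT points in 3 of 3 panels, while in CD8 cells this holds for the summed share alone.

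In CD8 cells the ratio of Hsp90aa1 to Hsp90ab1 was 0.580 and 0.799 in KO, against 0.650 and 1.119 in WT, where 1.119 belongs to the library labelled CD8 WT replicate 2. The ratio of Hspd1 to Hspe1 was 12.2 and 10.1 in CD8 KO, against 9.90 and 10.1 in CD8 WT. Hsph1 was 5.33% and 4.94% of Hspa8 in CD8 KO, against 5.91% and 4.17% in CD8 WT. None of these ratios separated the CD8 groups in the way they separated the CD4 groups, and the difference between the cell types in the ratios was not tested.

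Likeness among the members was measured as the root-mean-square difference of their log2(TPM + 1) profiles over the 8 libraries, after each gene's mean was taken off. Of the 45 pairs, Dnaja1 and Dnajb1 were the most alike, at 0.17 log2 units, although these J-domain genes lie on different chromosomes. Dnajb1 and Hspd1 followed at 0.24, and the divergent neighbours Hspe1 and Hspd1 at 0.25. The least alike were Hspa1a and Hspe1, at 1.84, and the median pair stood at 0.67. Of 7775 other genes averaging 10 TPM or more, those nearest to the members' mean profile were Ncoa4, the receptor that sends ferritin to autophagy (0.08), Gm20199 (0.09), Sidt2, a lysosomal membrane protein (0.10), Ypel5 (0.11) and the antioxidant peroxiredoxin Prdx6 (0.13). The mean profile rests in part on the scarce inducible copies. In the library labelled CD8 WT replicate 2 it stood at 0.24, its highest value, with Hspa1a at 3.06 and Hspa1b at 1.70, while 7 of the other 8 members were below their own means. These are descriptions over 8 libraries that share their groups.

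**Figure D4:**
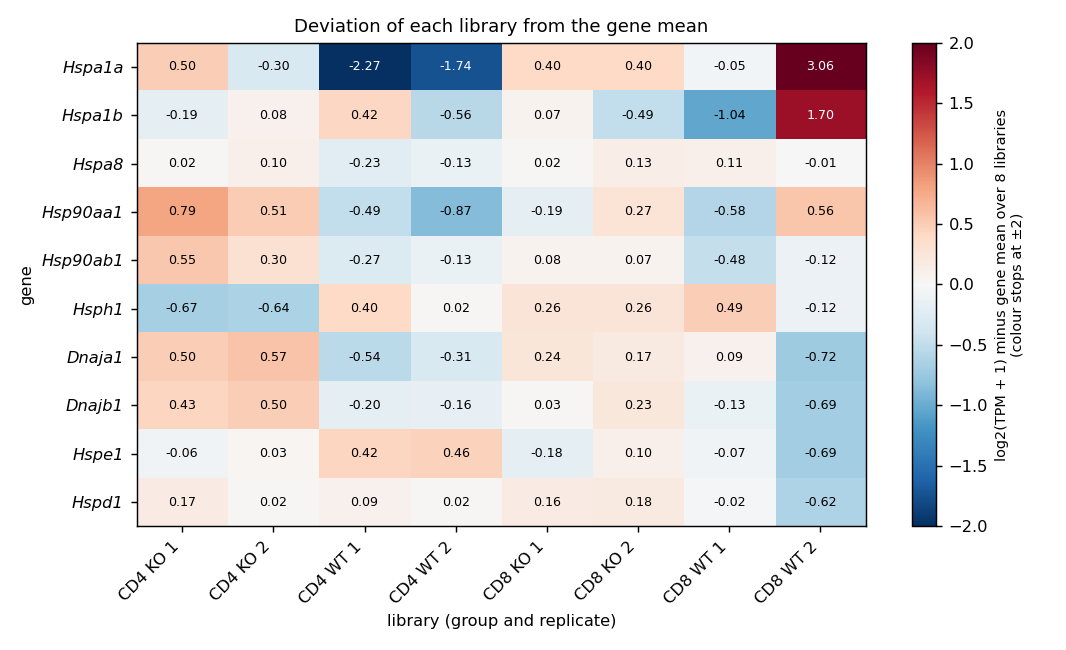
Deviation of each library (x axis) from the mean of each gene over the 8 libraries (y axis) on the log2(TPM + 1) scale, red above and blue below the mean, with colours that stop at ±2 and the value printed in each cell. The library labelled CD8 WT replicate 2 combines the highest values of Hspa1a (3.06) and Hspa1b (1.70) with the lowest of Dnaja1 (-0.72), Dnajb1 (-0.69), Hspe1 (-0.69) and Hspd1 (-0.62), and the CD4 KO libraries combine high Hsp90aa1 with low Hsph1.

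The plot of deviations shows that the heat shock genes did not move as a block. In CD4 WT the Hspa1a values were -2.27 and -1.74 log2 units from the gene's mean, while Hsph1 was at 0.40 and 0.02 and Hspe1 at 0.42 and 0.46. In the library labelled CD8 WT replicate 2 the inducible genes Hspa1a, Hspa1b and Hsp90aa1 (0.56) were above their means and the J-domain and chaperonin genes were below theirs. In gene structure the members are compact: 9 of 10 span fewer bases in the genome than the median gene tested (19068 bases), and their median span is 4644 bases. Hsph1, which was lower in CD4 KO, is the longest with 19471 bases, while Hspe1, also lower in CD4 KO, spans 3170 bases. Several have near-identical relatives in the GENCODE transcripts, to which reads can be divided: 63.4% of the 100-base stretches of Hspa8, 47.6% of Hsp90aa1, 26.9% of Hspd1, 24.0% of Dnaja1 and 22.4% of Hspe1 also occur in another gene, against 0% for Hsp90ab1, Hsph1 and Dnajb1.

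The other genes of the chaperone network were counted from 8 lists of non-members. Over all 11786 genes tested, 4919 were positive in CD4 KO and 6176 in CD8 KO, and 16.7% and 15.1% had an unadjusted p under 0.05 (limma). The genes named from each list were picked by the lowest p in these same data. Of the 8 other HSP70 and HSP110 genes 6 were tested, and limma called 0 in CD4 or CD8 cells, also before adjustment. Of these, 5 of 6 were positive in CD4 KO (median 0.44) and 2 of 6 in CD8 KO (median -0.28). Hspa2, a further HSP70, was at 9.26 and 13.4 TPM in CD4 KO, against 2.53 and 7.03 TPM in CD4 WT (limma, adjusted p = 0.372). Hspa4l, a relative of HSP110, was at 14.7 and 6.18 TPM in CD8 KO, against 14.3 and 22.4 TPM in CD8 WT (limma, adjusted p = 0.486). Of 13 other J-domain genes limma called 0, with 1 in CD4 and 2 in CD8 cells under 0.05 before adjustment, and the medians were -0.07 in CD4 and 0.11 in CD8 cells. Among them Dnajb4 was at 57.3 and 41.9 TPM in CD4 KO, against 13.8 and 24.6 TPM in CD4 WT, and at 12.01 and 10.7 TPM in CD8 KO, against 21.6 and 46.2 TPM in CD8 WT. It was thus higher in KO in CD4 cells and lower in KO in CD8 cells in every library, and neither difference passed (1.36 and -1.40, limma, adjusted p = 0.196 and 0.239).

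Of 18 HSP90 co-chaperone genes, which load clients and time the HSP90 cycle, limma called 0, with 2 in CD4 and 1 in CD8 cells under 0.05 before adjustment, and 3 of 18 were positive in CD4 KO (median -0.37) and 12 of 18 in CD8 KO (median 0.29). In CD4 cells their median thus had the opposite sign to the HSP90 genes, on the TPM scale and beside a median of -0.16 over all genes. Fkbp5, a co-chaperone of HSP90 with steroid receptors, was at 60.3 and 101 TPM in CD4 KO, against 194 and 144 TPM in CD4 WT (limma, adjusted p = 0.262). Tomm70a, the mitochondrial import receptor that docks HSP90 and HSP70, was at 7.46 and 18.0 TPM in CD8 KO, against 28.4 and 24.1 TPM in CD8 WT (limma, adjusted p = 0.327). Of 12 HSP70 co-chaperones limma called 0, with 1 in CD4 and 3 in CD8 cells under 0.05 before adjustment, and the medians were 0.02 in CD4 and 0.20 in CD8 cells. Hspbp1, an exchange factor, was at 31.5 and 54.5 TPM in CD4 KO, against 80.3 and 73.4 TPM in CD4 WT, and at 25.4 and 37.3 TPM in CD8 KO, against 67.3 and 55.3 TPM in CD8 WT, so it lay lower in 4 of 4 KO libraries (average -0.92, limma, adjusted p = 0.0839), as did 7.69% of all genes. Bag6, which guards newly made membrane proteins, was at 20.3 and 22.0 TPM in CD8 KO, against 5.74 and 11.6 TPM in CD8 WT (limma, adjusted p = 0.265).

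Of 5 heat shock transcription factors, Hsf1 and Hsf2 were tested and limma called 0, with 0 under 0.05 before adjustment in either cell type. Hsf1 was at 109 and 116 TPM in CD4 KO, against 135 and 159 TPM in CD4 WT, and at 88.6 and 77.4 TPM in CD8 KO, against 107 and 56.2 TPM in CD8 WT. Hsf2 was at 15.5 and 11.3 TPM in CD4 KO, against 13.8 and 11.95 TPM in CD4 WT. Of 10 small heat shock protein genes 4 were tested and limma called 0, with 1 in CD4 and 0 in CD8 cells under 0.05 before adjustment. Hspb9 was at 7.54 and 4.68 TPM in CD4 KO, against a listed 0 and 2.29 TPM in CD4 WT, and at 2.15 and 1.52 TPM in CD8 KO, with a listed 0 in CD8 WT replicate 1 and in the library labelled CD8 WT replicate 2.

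The 14 genes of the TRiC chaperonin, which folds actin and tubulin, and of prefoldin, which feeds it, were mostly positive, with 11 of 14 in CD4 KO (median 0.23) and 13 of 14 in CD8 KO (median 0.51), and limma called 0, with 1 in each cell type under 0.05 before adjustment. Cct2 was at 458 and 470 TPM in CD4 KO, against 239 and 343 TPM in CD4 WT, and at 412 and 421 TPM in CD8 KO, against 309 and 205 TPM in CD8 WT, so that 4 of 4 KO libraries lay above 4 of 4 WT libraries (average 0.71, limma, adjusted p = 0.0969), as did 5.57% of all genes. Its value of 205 TPM is that of the library labelled CD8 WT replicate 2. Of 14 other mitochondrial chaperone and protease genes limma called 0, with 1 in each cell type under 0.05 before adjustment, and 3 of 14 were positive in CD4 KO (median -0.33) and 4 of 14 in CD8 KO (median -0.12). Htra2, a protease between the mitochondrial membranes, was at 52.6 and 57.1 TPM in CD4 KO, against 97.7 and 106 TPM in CD4 WT (limma, adjusted p = 0.269). Afg3l2, an inner membrane protease, was at 33.4 and 50.1 TPM in CD8 KO, against 71.5 and 73.9 TPM in CD8 WT (limma, adjusted p = 0.330).

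Immediate early genes, which are known to respond to the handling of cells, mostly had positive differences in CD4 KO and negative ones in CD8 KO, while 8 of 10 members were positive in each cell type. The CD8 count of members includes Hspa8 (0.03), Hsp90aa1 (0.05) and Hsph1 (0.07), whose signs turned with median-of-ratios scaling. The 20 immediate early genes listed, among them Fos and Jun, summed to 9747 and 9285 TPM in CD4 KO, against 4624 and 4363 TPM in CD4 WT, and to 4756 and 5181 TPM in CD8 KO, against 4277 and 13821 TPM in CD8 WT. The sum of 13821 TPM is that of the library labelled CD8 WT replicate 2, and the other CD8 WT sum lay below both CD8 KO sums. The CD8 counts of this list include that library and were not made without it. In CD4 cells 18 of 20 were positive (median 1.46) and limma called 0, with 8 under 0.05 before adjustment. Nfkbia, the inhibitor of NF-kappaB, was at 3347 and 2862 TPM in CD4 KO, against 890 and 884 TPM in CD4 WT (1.80, limma, adjusted p = 0.0826). In CD8 cells 2 of 20 were positive (median -1.08), and 2 passed. The phosphatase gene Dusp2 fell in CD8 KO, at 11.4 and 15.6 TPM against 96.9 and 135 TPM in CD8 WT (-3.01 ± 0.37, limma, adjusted p = 0.0233). In CD4 cells Dusp2 was on the other side, at 68.2 and 46.9 TPM in KO, against 44.0 and 37.0 TPM in WT (0.48, limma, adjusted p = 0.550), so its call on the average of both cell types (-1.27, limma, adjusted p = 0.0313) comes from the CD8 values. Ier2 fell in CD8 KO, at 88.1 and 140 TPM against 471 and 1177 TPM in CD8 WT (-2.74 ± 0.45, limma, adjusted p = 0.0458), a call that passed in 4 of 21 other settings, beside 11 of 21 for Dusp2. The library with the highest immediate early sum, labelled CD8 WT replicate 2, is also the highest for Hspa1a and Hspa1b, and the part of handling in the heat shock values was not tested.

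Markers of other cells also differed in level between the groups. The 7 monocyte and macrophage markers summed to 725 and 1019 TPM in CD4 KO, against 107 and 65.2 TPM in CD4 WT, and to 601 and 617 TPM in CD8 KO, against 158 and 3108 TPM in CD8 WT. Within this list C1qa was at 8.40 and 11.2 TPM in CD4 KO and listed at 0 in both CD4 WT libraries. The 8 neutrophil markers summed to 652 and 1258 TPM in CD4 KO, against 175 and 24.2 TPM in CD4 WT, and to 599 and 1009 TPM in CD8 KO, against 515 and 27052 TPM in CD8 WT. The 8 B cell markers listed ran the other way in CD4 cells, with 6878 and 6352 TPM in CD4 KO, against 14692 and 10702 TPM in CD4 WT, and with 1978 and 2602 TPM in CD8 KO, against 1807 and 22916 TPM in CD8 WT. The 10 T cell markers summed to 5367 and 5786 TPM in CD4 KO, against 7955 and 8377 TPM in CD4 WT. Most of this gap was Il7r, the interleukin 7 receptor, at 1000.1 and 1173 TPM in CD4 KO, against 3167 and 2973 TPM in CD4 WT. Cd3e, a subunit of the T cell receptor complex, lay on the other side, at 721 and 706 TPM in CD4 KO, against 426 and 554 TPM in CD4 WT, and Cd4 and Cd5 overlapped. These 4 markers were chosen after their values were seen. The 5 NK cell markers summed to 54.7 and 62.0 TPM in CD4 KO, against 121 and 161 TPM in CD4 WT. The lower sum came from Klrd1 (32.1 and 41.7 TPM in CD4 KO, against 88.2 and 118 TPM in CD4 WT) and Prf1. The rest of the list went the other way. Ncr1 was at 0.332 and 2.88 TPM in CD4 KO and at 0 and 0.266 TPM in CD4 WT. Klrb1c was at 2.62 and 1.57 TPM in CD4 KO, against 0.540 and 1.33 TPM in CD4 WT. Gzma was at 10.2 and 5.94 TPM in CD4 KO, against 4.63 and 0.775 TPM in CD4 WT. The part of other cells in the heat shock values was not tested.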

How the data were processed

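Naive CD4 and CD8 T cell messenger RNA was measured in 8 libraries, 2 in each of 4 groups set by the cell type and genotype labels. Per the submitters' processing notes HISAT aligned the reads to mm10. The HISAT version, the program behind the gene tables and its handling of reads that map to several genes are not stated in these sources. The deposited values are, per the file headers, TPM (transcript shares corrected for length, with an equal sum in each library), FPKM (fragments per length and depth) and a coverage for each gene. Depth was estimated here from the ratio of coverage to FPKM. TPM keeps no read counts, so no counting interval is given. The authors used DESeq2 per the labels, and no count was used here. Lines with the same symbol (at most 261 symbols in a library) were summed. 

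The 11786 genes averaging 1 TPM or more were fitted as log2(TPM + 1) with limma 3.58.1 (R 4.3.3) with an intensity trend, 1 mean per group, 4 residual and 5.68 prior degrees of freedom, and p-values were adjusted over all genes by the Benjamini-Hochberg method at 0.05. Every adjusted p is limma's. Log2 differences on this scale understate changes of low genes. The fit was tested on simulated data. A total of 21 alternatives were run for each of the 5 comparisons, as far as they apply. Since no label ties a replicate to a mouse of its own, a p-value here reflects only library-to-library spread, possibly technical. The members and the lists were chosen with earlier results of these data known. Genes named outside the members are, for each list, those called and the lowest p in each cell type, and the 5 genes nearest to the members' mean profile. Symbols were matched to RefSeq (GRCm38.p6), with 4 genes found under older names and Ighm, Hbb-bt and Ahsp not listed.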

Additional observations from a re-analysis of the deposited data

Results flagged for a closer look

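For 3 of the 16 genes named from the lists, both KO libraries lay above both WT libraries in CD4 cells and below both in CD8 cells. Of all 11786 genes tested, 225 (1.91%) had this pattern and 453 had the reverse. The 16 genes were picked by their p in these same libraries, which favours groups without overlap. The 3 of 16 therefore cannot be read as an excess over all genes. The CD8 minus CD4 difference of the knockout effect on the log2(TPM + 1) scale was -2.761 for the J-domain gene Dnajb4, -3.483 for the immediate early phosphatase Dusp2 and -3.709 for the immediate early gene Ier2. None of the 3 passed the interaction test over all genes (limma, adjusted p = 0.652 for Dnajb4 and 0.367 for Dusp2 and Ier2), so the difference between the cell types is not shown. The wild-type side of the CD8 comparison includes the library labelled CD8 WT replicate 2. No member was opposite in every library in this way.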

How the results depend on the processing

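With each library left out in turn, calls ran from 0 to 768 in CD4 (members 0 to 2), 0 to 1842 in CD8 (members 0 to 4), 0 to 1148 for the interaction (members 0 to 2), 0 to 1629 for WT CD8 against CD4 (members 0 to 4) and 0 to 1798 on average (members 0 to 3), the high counts all without a CD8 WT library. In CD4, calls were 142 with median-of-ratios scaling, 0 with no filter, 17 with the span trend removed, 5 with no intensity trend, 243 with the compared groups alone and 1260 with library weights, where Hsp90aa1, Dnaja1, Hspa1a and Hsph1 (4 members) passed. In CD8 they were 0, 23, 15, 0 and 0 for no filter, span, no trend, compared groups and weights, and for WT CD8 against CD4 they were 1, 4, 0 and 15 for no filter, no trend, compared groups and weights. On average they were 759 with median-of-ratios scaling (2 members), 26 with no filter, 77 with span removed and 312 with no trend. The replicate block gave 29, 26, 0, 26 and 399 calls in the 5 comparisons and 0 members in each, against 84, 35, 0, 23 and 485 without it. Same-numbered libraries deviated together with correlations of only -0.04 to 0.09. With so few libraries this cannot tell whether same-numbered libraries share a mouse or a batch, which no label gives. The compared groups alone give no interaction or average, and Hspa1b has no value at a mean of 5 TPM or when summed with Hspa1a. The causes of these moves were not tested.

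Signs turned for small differences. In CD4, Hspa1b was -0.0096 with pseudocount 5 and -0.24 with span removed (-0.47 to 0.51 with libraries left out), and Hspd1 was -0.056 with span removed (-0.033 to 0.12). In CD8, Hspa8 was -0.076 with median-of-ratios scaling, -0.036 without haemoglobin genes and -0.15 with span removed (-0.031 to 0.083), Hsp90aa1 was -0.053, -0.014 and -0.13 (-0.52 to 0.62), and Hsph1 was -0.028 with median-of-ratios scaling (-0.23 to 0.37). With libraries left out, CD8 values ran from -2.66 to 0.45 for Hspa1a, -1.91 to 0.83 for Hspa1b and -0.16 to 0.76 for Hsf2, and averages from -0.28 to 1.27 for Hspa1a, -0.95 to 0.42 for Hspa1b and -0.21 to 0.099 for Hspe1. On average Hspa8 was -0.068 with span removed and Hspe1 was 0.0056 with median-of-ratios scaling. Of 1152 values of named genes under other settings, 1057 kept their sign and side of the threshold. TPM keeps no counts, so what depth limits could not be measured, and the low Hspa1a values in CD4 WT rest on few aligned bases.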
